A study of Mus musculus with 20 samples.

Results

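The 5 kainate receptor subunit genes, *Grik1* to *Grik5*, were followed through RNA-seq of the hippocampus and the neocortex of miR-324-null and WT mice. They were taken by gene symbol from 35580 genes, and the estimated counts and the TPM of all their 32 annotated transcripts were summed per gene in each sample. Mice of the mutant group lacked *Mir324*, the locus of a microRNA, in every cell, through a deletion made by CRISPR/Cas9 in a mixed C57BL/6 and CBA/ca founder that was backcrossed onto C57BL/6J. Crosses of heterozygotes were used to generate WT and null lines, so genotype and line cannot be told apart here. All mice were male and 13.5 months old, and no treatment is named for any group. There were 5 samples of each genotype in each tissue, 20 in all, and the labels name the neocortical samples cerebral cortex.

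Kainate receptors are glutamate-gated ion channels assembled from 4 subunits. GluK1, GluK2 and GluK3 (encoded by *Grik1*, *Grik2* and *Grik3*) form channels on their own or together, whereas GluK4 and GluK5 (encoded by *Grik4* and *Grik5*) bind kainate with high affinity and need one of the first group to reach the membrane as a working channel. In the hippocampus they are best known from the synapses between mossy fibres and CA3 pyramidal cells, on both sides of the synapse, and kainate, the agonist that gave the family its name, evokes seizure-like activity there. The study applied kainate to hippocampal slices of WT and null mice to evoke network activity. Those slices came from younger, female mice and not from the males sequenced here.

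The deleted locus gives rise to 2 mature microRNAs, which are shown here because the absent regulator is the only designed difference between the genotypes. The sequences below are those of RefSeq (GRCm38.p6), 5′ to 3′, with the seed (bases 2 to 8) in capitals.
mmu-miR-324-5p: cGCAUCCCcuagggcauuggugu
mmu-miR-324-3p: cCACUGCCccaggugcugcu
The first lies at chr11:70012060-70012082 and the second at chr11:70012095-70012114, both on the plus strand. The DNA letters that pair with the seed are GGGATGC for miR-324-5p and GGCAGTG for miR-324-3p, and they were searched on the sense strand of the annotated 3′UTRs (GENCODE M21, GRCm38). The letters for miR-324-5p were in the 3′UTR of 0 of the 5 subunit genes, against 11.0% of the 14332 tested genes with an annotated 3′UTR. Those for miR-324-3p were in 2 of the 5, *Grik3* and *Grik5*, against 19.9% of these genes. A longer 3′UTR has more places for a match, and no share for genes with 3′UTRs of like length was computed. Both matches are shown with 8 bases on each side and the match in capitals.
Grik3-201: tgggtgacGGCAGTGggggtggg
Grik5-207: taaacactGGCAGTGcccatgac
The match in *Grik3* lay at chr4:125711143-125711149 on the plus strand, at bases 3052 to 3058 of a 3′UTR of 6082 bases. The match in *Grik5* lay at chr7:25061124-25061130 on the minus strand, in an exon that only Grik5-207 holds, a transcript annotated as a target of nonsense-mediated decay that made up 4.51% of the TPM of *Grik5* on average. A match of letters is a description of these sequences and not a site shown to be used. Other forms of the microRNAs, with shifted ends, and matches to fewer bases of the seed were not searched.

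All 5 genes were measured above the filter on low counts in every comparison. *Grik1* (ENSMUSG00000022935.16, chr16:87895900-88290265, minus strand) had between 125 and 277 counts in a sample. *Grik2* (ENSMUSG00000056073.16, chr10:49094833-49788766, minus strand) had between 682 and 1324. *Grik3* (ENSMUSG00000001985.9, chr4:125490700-125714173, plus strand) had between 475 and 2408. *Grik4* (ENSMUSG00000032017.14, chr9:42518135-42944493, minus strand) had between 279 and 982. *Grik5* (ENSMUSG00000003378.9, chr7:25009849-25072346, minus strand) had between 2634 and 3730. *Grik1* was thus counted least deeply of the 5, and its values carry the largest counting error. Of the sequence of 31 bases that the quantification reads, between 0.338% and 1.13% of each gene was shared with another gene, and no annotated gene overlapped any of the 5 on the other strand.

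The samples held between 12752439 and 19617765 estimated counts, with a median of 14982602. The dentate gyrus genes *Prox1*, *C1ql2* and *Dsp* summed to between 117 and 291 CPM (counts scaled to a common library size by TMM) in the hippocampus and to between 17.7 and 46.7 in the neocortex, and 6 neocortical layer genes to between 122 and 195 in the hippocampus and between 394 and 654 in the neocortex. Of these 6 genes, 5 passed as lower in the hippocampus in each genotype by edgeR, and *Fezf2* did not. Within the neocortex the dentate gyrus genes summed to between 17.7 and 23.7 CPM in WT and between 20.8 and 46.7 in null samples. The sums there were 543 to 612 and 394 to 654 for the layer genes. For 3 genes of the hippocampal field CA1 (*Wfs1*, *Fibcd1* and *Mpped1*) they were 299 to 362 and 329 to 409. The part of such differences between neocortical pieces in the results below was not tested. A group of 3 libraries stood apart by choroid plexus genes (*Ttr*, *Kl* and *Folr1*), with a sum of 4451 CPM in hippocampus WT replicate 3, 3836 in hippocampus null replicate 5 and 787 in neocortex null replicate 2, against at most 129 in the other 17. Hippocampus null replicates 1 and 2 stood apart by the lowest mean level of the 10% of genes with the longest transcripts, at 4.94 and 4.90 on the log2 CPM scale, against at least 5.02 in the other 18. The genes of 4 neuronal markers summed to between 3758 and 4541 CPM in the hippocampus and between 4837 and 6069 in the neocortex, and those of 3 astrocyte markers to between 521 and 669 and between 186 and 347. Of the astrocyte markers, *Aldh1l1* went the other way. It lay between 43.9 and 53.7 CPM in the hippocampus and between 57.0 and 68.7 in the neocortex. In bulk tissue, fewer cells of a type and less RNA per cell cannot be told apart, and this holds for every tissue difference below. Nothing in the labels ties samples to separate animals, so p-values measure the spread between these samples. *Mir324* itself was not analysed here.

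Levels of different genes were compared in TPM, which is scaled to transcript length. *Grik5* stood first in each of the 20 samples, with between 88.4 and 119.8 TPM, and was above the sum of the other 4 genes in each of them. It made up between 57.9% and 67.8% of the summed TPM of the 5 genes. These sums take in transcripts that are not annotated as protein-coding. On average, protein-coding transcripts held 51.0% and 47.7% of *Grik5* TPM in WT and null hippocampus, and 49.4% and 43.7% in the neocortex. For the other 4 genes they held between 76.5% and 100% in each group. Levels of protein-coding transcripts alone were not compared, so the place of *Grik5* above the sum of the other 4 holds for all transcripts together and is not shown for coding ones. *Grik1* was lowest in 18 of the 20 samples, with between 4.33 and 9.09 TPM. The summed TPM of the family was 179 ± 9.71 (SD, n = 5) in WT hippocampus, 180.3 ± 8.73 in null hippocampus, 156 ± 4.29 in WT neocortex and 159.9 ± 10.4 in null neocortex.

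The order between these extremes was not the same in both tissues. In WT hippocampus it ran *Grik5* (114 ± 3.40 TPM), *Grik2* (26.8 ± 3.44), *Grik4* (21.8 ± 4.95), *Grik3* (9.97 ± 1.5) and *Grik1* (5.91 ± 1.12). In WT neocortex it ran *Grik5* (101.1 ± 5.07 TPM), *Grik3* (19.3 ± 2.61), *Grik2* (19.1 ± 1.72), *Grik4* (10.1 ± 0.198) and *Grik1* (6.39 ± 1.05). Neighbours in the order that overlapped in range were *Grik2* and *Grik4* in the hippocampus of both genotypes, *Grik2* and *Grik3* in the neocortex of both genotypes, *Grik3* and *Grik1* in null hippocampus, and *Grik4* and *Grik1* in null neocortex. *Grik4* was above *Grik3* in 10 of 10 hippocampal samples and in 0 of 10 neocortical samples.

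**Figure D1:**
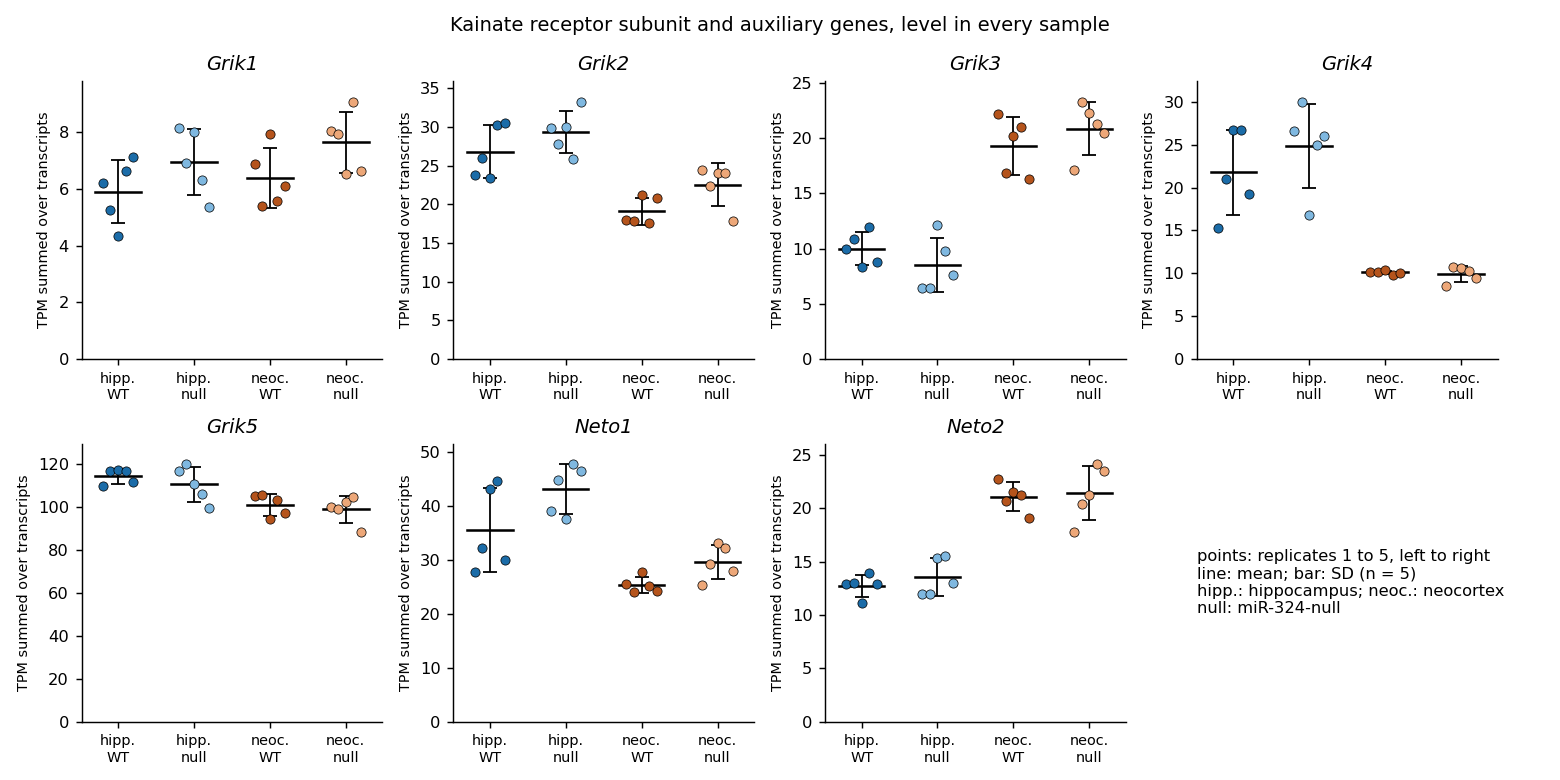
Level of each subunit gene and of the auxiliary genes *Neto1* and *Neto2* in TPM (y axis, from 0) in each sample, by tissue and genotype (x axis), with points for replicates 1 to 5, a line at the mean and a bar for the SD. *Grik4* sat between 15.3 and 30.02 TPM in the hippocampus and between 8.47 and 10.8 in the neocortex, and *Grik3* between 6.44 and 12.1 and between 16.3 and 23.3.

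Tissue was compared within each genotype, which asked where each receptor gene was read more. Of the 5 genes, 4 passed the test in WT mice (edgeR's quasi-likelihood test, Benjamini-Hochberg adjusted p of at most 0.05), with 3 higher and 1 lower in the hippocampus. In that comparison 36.1% of all tested genes passed, 18.1% as higher and 18% as lower. In null mice 4 of 5 passed again, in the same directions for each gene, where 27.4% of all genes passed, 13.8% as higher and 13.6% as lower. The median log2 difference of the 5 genes was 0.27 in both genotypes, against -0.00 and 0.01 over all genes tested. Each genotype has its own samples, but the tissue and genotype comparisons share all of them.

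The largest of these differences was that of *Grik4*, which encodes the high-affinity subunit GluK4. In WT hippocampus its level was 39.8, 49.6, 63.8, 62.4 and 47.9 CPM in replicates 1 to 5, and in WT neocortex 23.3, 24.96, 23.7, 23.4 and 24.8. In null hippocampus it was 66.8, 73.6, 40.8, 58.1 and 62.1 CPM, and in null neocortex 20.4, 24.9, 23.1, 21.8 and 21.5. Every hippocampal sample was above every neocortical sample, and the neocortical samples lay close together while the hippocampal ones were spread widely. *Grik4* was 2.19-fold higher in the hippocampus of WT mice (log2 difference 1.13, SE 0.11, edgeR adjusted p = 4.28e-06) and 2.71-fold higher in that of null mice (1.44, SE 0.13, adjusted p = 8.62e-06). Without the libraries with choroid plexus genes the log2 differences were 1.06 and 1.47. Without hippocampus null replicates 1 and 2, the libraries of lowest long-transcript mean, the difference in null mice was 1.27. With that mean as a covariate the differences were 1.16 in WT and 1.30 in null mice.

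The spread of *Grik4* within the hippocampus ran in part beside that of markers of CA3, the hippocampal field whose pyramidal cells receive the mossy fibres. *Bok*, *Nectin3* and *Iyd* summed to 81.2, 93.7, 93.5, 91.4 and 85.5 CPM in WT hippocampus, to 99.96, 121, 72.4, 91.4 and 94.0 in null hippocampus, and to between 50.1 and 67.0 in the neocortex. WT replicate 1 was lowest in its group in both *Grik4* and these markers, and null replicate 3 was lowest and null replicate 2 highest in their group in both. In WT hippocampus replicate 2 was highest in the markers, whereas replicate 3 was highest in *Grik4*. All 3 markers passed as higher in the hippocampus in each genotype, and *Iyd*, the most restricted of them, was at 0 in 3 neocortical samples and at most 0.513 CPM in the others. *Iyd* adds little to the sum, at 2.73 to 3.56 CPM in WT and 1.09 to 2.83 in null hippocampus, whereas mean *Grik4* was higher in null samples. *Bok* and *Nectin3*, which make up most of the sum, lay at 23.5 to 41.8 and 22.5 to 27.6 CPM in the neocortex. The part of these cells in the *Grik4* values was not tested.

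*Grik3*, which encodes the low-affinity subunit GluK3, went the other way. In WT hippocampus its level was 57.8, 59.9, 45.4, 63.2 and 48.6 CPM in replicates 1 to 5, and in WT neocortex 117, 96.2, 104.8, 112 and 92.7. In null hippocampus it was 37.1, 36.96, 65.1, 51.7 and 41.6 CPM, and in null neocortex 94.7, 122, 114, 108.6 and 108.4. No hippocampal sample reached the lowest neocortical one in either genotype. *Grik3* was 1.90-fold lower in the hippocampus of WT mice (log2 difference -0.93, SE 0.093, edgeR adjusted p = 4.65e-06) and 2.34-fold lower in that of null mice (-1.22, SE 0.14, adjusted p = 4.71e-05).

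The single annotated transcript of *Grik3* is 8973 bases long, among the 10% of genes with the longest transcripts, which starts at a mean effective length of 5246 bases. The mean log2 CPM of the 1527 genes of that group was lowest in hippocampus null replicates 1 and 2, and these also had the lowest *Grik3* levels of the 20 samples. Without these libraries the log2 difference between the tissues in null mice was -1.04 (SE 0.13, edgeR adjusted p = 0.000370), and with the mean as a covariate it was -1.04 (SE 0.12, adjusted p = 0.000111). *Grik3* thus remained lower in the hippocampus with either treatment of these libraries, by somewhat less.

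**Figure D2:**
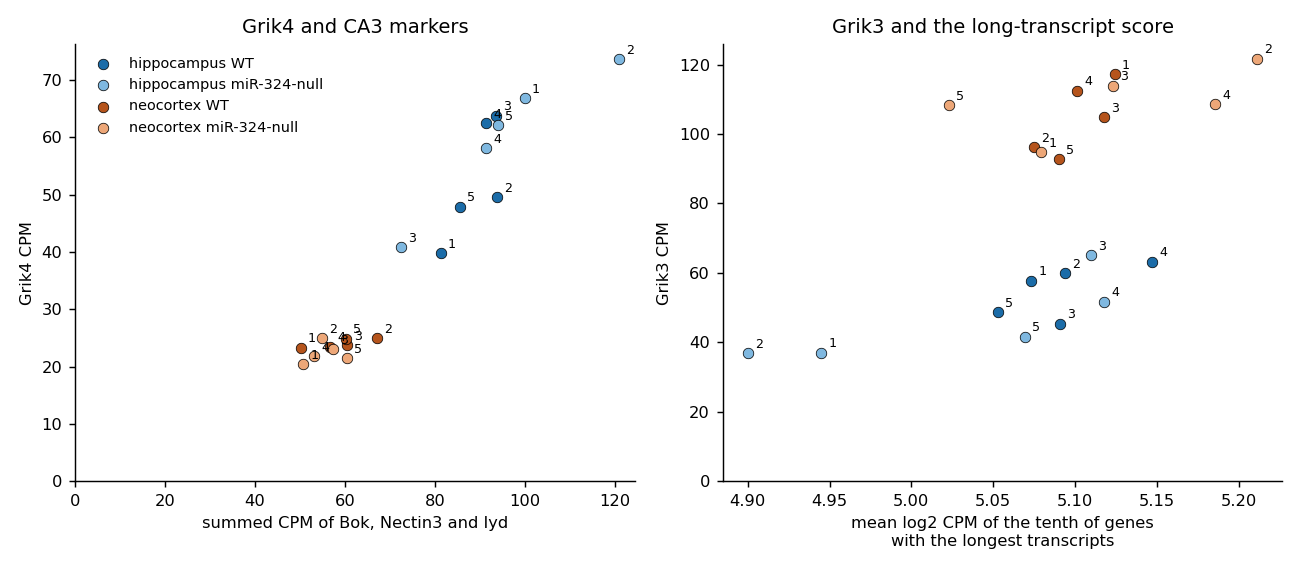
Left, *Grik4* (y axis, CPM) against the summed level of the CA3 markers *Bok*, *Nectin3* and *Iyd* (x axis, CPM); right, *Grik3* (y axis, CPM) against the mean log2 CPM of the 10% of genes with the longest transcripts (x axis, not from 0), with a point for each sample coloured by group and numbered by replicate. Hippocampal samples lie above neocortical ones in the left panel and below them in the right panel, and hippocampus null replicates 1 and 2 lie at the lower left of the right panel, at 4.94 and 4.90.

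*Grik2* and *Grik5*, which encode the most widely used pair of low-affinity and high-affinity subunits, GluK2 and GluK5, were higher in the hippocampus by smaller factors. *Grik2* measured 65.4, 70.7, 67.9, 79.5 and 77.7 CPM in WT hippocampus, 52.8, 54.3, 57.5, 48.2 and 57.6 in WT neocortex, 81.8, 78.97, 75.6, 75.6 and 89.2 in null hippocampus, and 66.1, 64.03, 63.3, 66.1 and 52.0 in null neocortex. The tissues did not overlap in either genotype, and *Grik2* was 1.33-fold higher in the hippocampus of WT mice (log2 difference 0.42, SE 0.067, edgeR adjusted p = 2.58e-04) and 1.30-fold higher in that of null mice (0.37, SE 0.074, adjusted p = 0.00231). *Grik5* measured 238, 241, 241, 238 and 229 CPM in WT hippocampus, 200.4, 214, 176, 199 and 198 in WT neocortex, 243, 255, 215, 196 and 201 in null hippocampus, and 197, 185, 186, 188 and 169 in null neocortex. The WT tissues did not overlap for *Grik5*, whereas in null mice 1 of the 5 hippocampal samples lay within the neocortical range.

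*Grik5* was 1.20-fold higher in the hippocampus of WT mice (log2 difference 0.27, SE 0.050, edgeR adjusted p = 8.58e-04) and 1.21-fold higher in that of null mice (0.27, SE 0.079, adjusted p = 0.0210). The call in null mice ended without hippocampus null replicate 1 (0.24, adjusted p = 0.0509), without replicate 2 (0.22, adjusted p = 0.0504), without both (0.15, adjusted p = 0.113), and with the long-transcript mean as a covariate (0.19, adjusted p = 0.133). These were the libraries with the highest *Grik5* levels of the 20 samples, at 243 and 255 CPM. *Grik1*, which encodes GluK1, a subunit found mostly in interneurons of these tissues, passed in neither genotype, with log2 differences of -0.09 (interval of 2 SE from -0.36 to 0.18) in WT mice and -0.05 (-0.32 to 0.22) in null mice. Its sign turned without the choroid plexus libraries, to 0.02 and 0.04. Its levels lay between 8.12 and 16.2 CPM in the hippocampus and between 10.2 and 16.0 in the neocortex, and overlapped. The inhibitory neuron markers *Gad1*, *Gad2* and *Slc32a1* summed to between 392 and 489 CPM in the hippocampus and between 479 and 688 in the neocortex.

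As shares of the summed TPM, the exchange between *Grik4* and *Grik3* was the main difference in make-up between the tissues. *Grik4* held 12.1% of the family in WT and 13.8% in null hippocampus, and 6.48% and 6.21% in the neocortex. *Grik3* held 5.57% and 4.75% in the hippocampus and 12.4% and 13.1% in the neocortex. The ratio of *Grik4* to *Grik3* in TPM was 2.22 on average in WT hippocampus (from 1.53 to 3.21) and 3.22 in null hippocampus (1.38 to 4.67), against 0.531 (0.455 to 0.612) and 0.476 (0.461 to 0.496) in the neocortex. The 2 tissues did not overlap in this ratio in either genotype. The share of the high-affinity subunits *Grik4* and *Grik5* together was 76.1 ± 2.39% in WT and 75.1 ± 2.65% in null hippocampus, and 71.3 ± 2.27% and 68.1 ± 0.565% in the neocortex (SD, n = 5). All of these shares count every transcript, also those of *Grik5* that are not annotated as protein-coding.

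**Figure D3:**
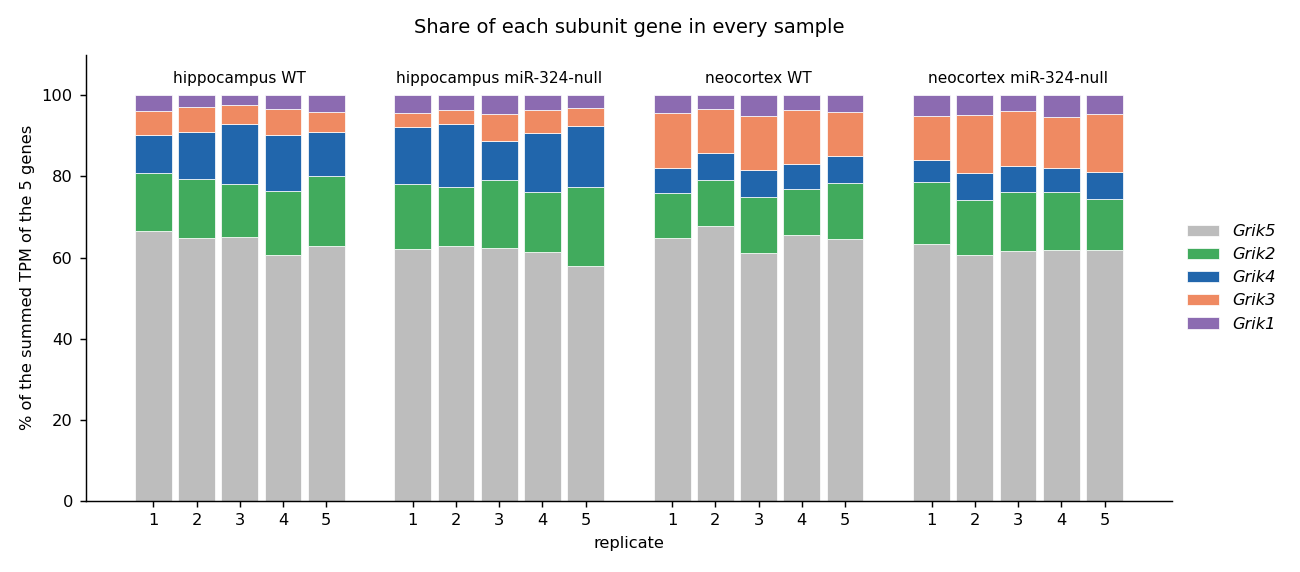
Share of each subunit gene in the summed TPM of the 5 genes (y axis, percent, from 0) in each sample (x axis, replicates 1 to 5 of each group). *Grik5* fills between 57.9% and 67.8% of every bar, the *Grik4* segment is wider than that of *Grik3* in 10 of 10 hippocampal bars and narrower in the 10 neocortical bars.

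The auxiliary subunits differed between the tissues in opposite directions as well. *Neto1* and *Neto2* encode membrane proteins that associate with kainate receptors and slow their gating. *Neto1* measured 61.3, 67.1, 89.5, 89.3 and 63.2 CPM in WT hippocampus, 51.2, 52.2, 54.7, 51.2 and 52.02 in WT neocortex, 84.98, 97.7, 76.2, 95.9 and 96.2 in null hippocampus, and 53.3, 57.8, 64.3, 62.5 and 56.2 in null neocortex. It was higher in the hippocampus by a log2 difference of 0.50 (SE 0.10, edgeR adjusted p = 0.00192) in WT mice and of 0.62 (SE 0.079, adjusted p = 8.92e-05) in null mice. *Neto2* lay between 35.7 and 47.9 CPM in the 10 hippocampal samples and between 58.2 and 73.99 in the 10 neocortical ones. It was lower in the hippocampus by a log2 difference of -0.67 (SE 0.059, edgeR adjusted p = 1.27e-06) in WT mice and of -0.56 (SE 0.072, adjusted p = 9.73e-05) in null mice. The tissues did not overlap for either gene in either genotype. In TPM, *Neto1* was above *Neto2* in all 20 samples, with a mean ratio of 2.81 and 3.22 in WT and null hippocampus and of 1.20 and 1.39 in the neocortex.

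Other genes of the kainate receptor pathway were taken from fixed lists of 36 genes with *Neto1* and *Neto2* among them, of which 35 were tested and *Klhl17* was not analysed here. In WT mice 13 were higher in the hippocampus, 11 were lower and 11 did not pass, with a median log2 difference of 0.02. In null mice 9 were higher, 11 were lower and 15 did not pass, with a median of 0.07. These shares lie above the 36.1% and 27.4% called over all genes, but the lists were chosen among neuronal genes with earlier results known, and no test of the lists was made. Of 9 scaffold genes, whose proteins bind the tails of the receptors, 3 were higher and 4 lower in WT mice and 2 and 4 in null mice. *Dlg1* (SAP97) was lower by -0.70 in both genotypes (edgeR adjusted p = 1.01e-06 and 5.77e-05), *Cask* by -0.46 in WT mice, and *Grip2* by -1.16 in null mice, while *Sdcbp* (syntenin) was higher by 0.62 in null mice. Of 7 signalling genes 5 were higher and 1 lower in WT mice and 4 and 1 in null mice.

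Of 3 synaptic organisers, 2 were higher and 1 lower in WT mice and 1 and 1 in null mice. *C1ql2*, which is secreted from mossy fibres and binds GluK2 and GluK4, was higher in the hippocampus by 4.78 on the log2 scale in WT mice (SE 0.33, edgeR adjusted p = 1.68e-07) and by 3.45 in null mice (SE 0.41, adjusted p = 5.63e-05). It also served as a dentate gyrus marker above. Of the 3 RNA editing genes, 2 of whose proteins recode GluK1 and GluK2 transcripts, 1 was higher (*Adarb2*, at 0.62 and 0.49) and 2 were lower (*Adar* and *Adarb1*) in each genotype, and these 3 genes were named after their values were seen. Of 4 trafficking and adhesion genes 1 was higher and 2 lower in WT mice and 0 and 2 in null mice, with *Snap25*, also a neuron marker, lower by -0.69 in WT mice. Of the 7 tested ubiquitin and SUMO pathway genes 0 passed in either genotype by edgeR, DESeq2 or limma, with 0 in WT and 1 in null mice at p of at most 0.05 before adjustment by edgeR. Between genotypes 0 of the 35 passed in either tissue by these tools. At an unadjusted edgeR p of at most 0.05 there were 6 in the hippocampus, where 1635 of 14796 genes in all reached it, and 9 in the neocortex, where 1822 of 14930 did. For the interaction 0 passed by edgeR and DESeq2, with 3 before adjustment by edgeR, where 857 of 15391 genes in all were at p of at most 0.05.

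The genotypes were compared within each tissue, which asked whether the receptor genes changed without miR-324. In the hippocampus 0 of the 5 genes passed by edgeR, where 0.115% of all tested genes passed (0.0676% higher and 0.0473% lower in null samples). In the neocortex it was also 0 of 5, where 0.315% of all genes passed (0.161% higher and 0.154% lower). Before adjustment, 1 gene in each tissue had p of at most 0.05, *Grik2* in both, where such a p was reached by 1635 of 14796 genes in all (hippocampus) and 1822 of 14930 (neocortex), and DESeq2 and limma also called 0 in each tissue. The median log2 difference of the 5 genes, null minus WT, was 0.15 (hippocampus) and 0.07 (neocortex), against 0.00 over all genes in both tissues. WT and null samples overlapped for each of the 5 genes in both tissues. How many of all tested genes do so was not counted, so this overlap only describes the 5 genes.

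*Grik2* had a log2 difference of 0.15 in the hippocampus (SE 0.068, edgeR unadjusted p = 0.0449, adjusted p = 0.439) and of 0.21 in the neocortex (SE 0.074, unadjusted p = 0.0140, adjusted p = 0.278). In the hippocampus 5 of 5 null samples were above the WT mean and 2 of 5 were above every WT sample. Without the choroid plexus libraries the hippocampal difference was 0.0875 (edgeR unadjusted p = 0.249). In the neocortex 4 of 5 null samples were above every WT sample, and replicate 5, at 52.0 CPM, was below the WT mean of 54.1. Without that replicate *Grik2* passed in the neocortex, at 0.27 (SE 0.056, edgeR adjusted p = 0.0212), in a comparison in which 3.76% of all genes then passed. Striatal projection neuron markers, 6 genes of the striatum, which lies beneath the neocortex, summed to between 121 and 331 CPM in WT neocortex and between 206 and 509 in null neocortex, and with their mean as a covariate *Grik2* was at 0.12 (adjusted p = 0.903).

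*Grik1* had log2 differences of 0.22 in the hippocampus (interval of 2 SE from -0.10 to 0.55, edgeR adjusted p = 0.641) and 0.20 in the neocortex (-0.02 to 0.41, adjusted p = 0.494). The intervals of this least counted gene thus take in changes of up to 0.55 and 0.41 on the log2 scale. The difference in the hippocampus was 0.0853 without hippocampus null replicates 1 and 2 and 0.12 without WT replicate 3. *Grik5* had -0.09 in both tissues, with intervals from -0.24 to 0.05 (adjusted p = 0.660) and from -0.20 to 0.03 (adjusted p = 0.583). Its Grik5-207 transcript, which holds the match to miR-324-3p, was at 5.29 ± 1.68% and 3.75 ± 0.250% of the gene's TPM in WT and null hippocampus and at 3.61 ± 1.81% and 5.39 ± 1.16% in the neocortex (SD, n = 5), in no common direction. Without hippocampus null replicates 1 and 2 the difference of *Grik5* in the hippocampus was -0.22 (SE 0.046, edgeR unadjusted p = 0.000806, adjusted p = 0.192). With the long-transcript mean as a covariate it was -0.19 (SE 0.052, edgeR unadjusted p = 0.00393, adjusted p = 0.208).

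*Grik3*, the other gene with a match to the seed of miR-324-3p, had -0.24 in the hippocampus (-0.54 to 0.07, edgeR adjusted p = 0.593) and 0.07 in the neocortex (-0.08 to 0.23, adjusted p = 0.761). Without hippocampus null replicates 1 and 2 its difference in the hippocampus was -0.06. *Grik4* had 0.19 in the hippocampus (-0.12 to 0.51, adjusted p = 0.686) and -0.10 in the neocortex (-0.22 to 0.02, adjusted p = 0.568). The difference in the hippocampus was 0.03 without the same replicates, and 0.25 (adjusted p = 0.502) with the CA3 marker mean as a covariate. In the neocortex 4 of 5 null samples were below every WT sample in *Grik4*, by small amounts. With all samples kept and no covariate, *Neto1* had a lower unadjusted p than any of the 5 subunit genes. Its difference was 0.28 in the hippocampus (SE 0.12, edgeR unadjusted p = 0.0325, adjusted p = 0.400) and 0.18 in the neocortex (SE 0.057, edgeR unadjusted p = 0.00786, adjusted p = 0.238). In the neocortex 4 of 5 null samples were above every WT sample in *Neto1*, and in the hippocampus 3 of 5. With the striatal marker score as a covariate the difference of *Neto1* in the neocortex was 0.10 (adjusted p = 0.881). *Neto2* had 0.07 in the hippocampus and -0.02 in the neocortex, with adjusted p of 0.744 and 0.922.

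**Figure D4:**
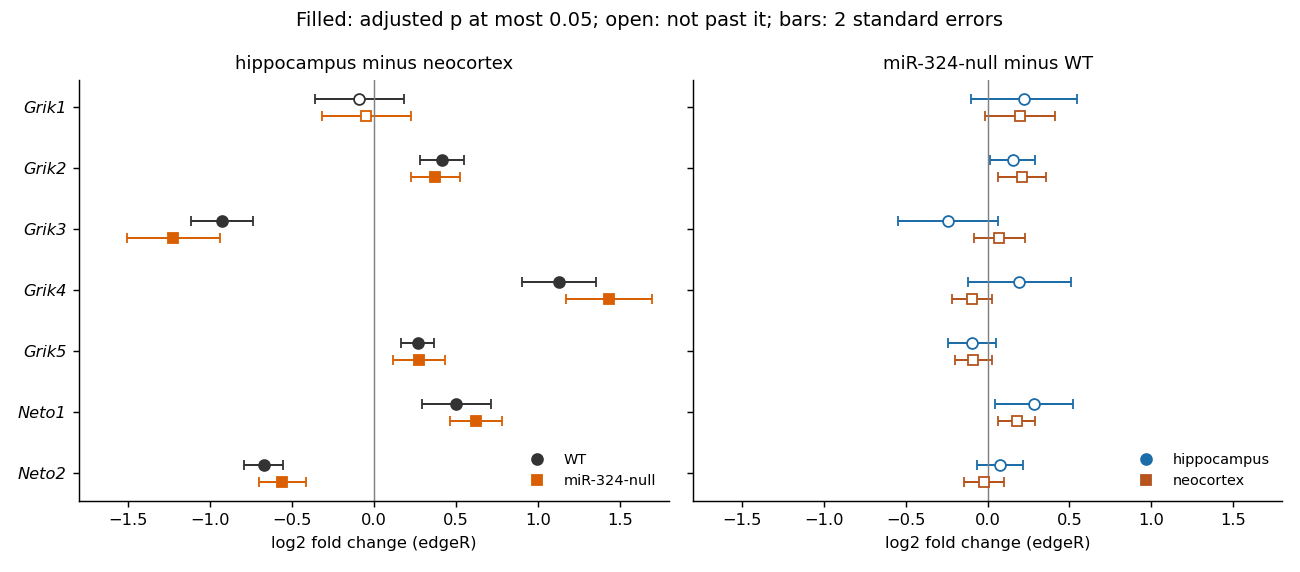
Log2 fold change (x axis) of each subunit and auxiliary gene (y axis), hippocampus minus neocortex in WT and null mice on the left and miR-324-null minus WT in each tissue on the right, with bars of 2 SE and filled symbols at an edgeR adjusted p of at most 0.05. On the left *Grik4* stands at 1.13 and 1.44 and *Grik3* at -0.93 and -1.22, and on the right all symbols are open and lie between -0.24 and 0.28.

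Whether the genotype difference itself differed between the tissues was tested as an interaction in a fit of all 20 samples. By edgeR 0 of the 5 genes passed, where 0.0195% of all genes passed, and DESeq2 called 0. At an unadjusted edgeR p of at most 0.05 it was also 0 of the 5, where 857 of 15391 genes in all reached it. *Grik3* had an interaction of -0.30 on the log2 scale (SE 0.18, unadjusted p = 0.110, adjusted p = 0.916) and *Grik4* of 0.30 (SE 0.18, unadjusted p = 0.123, adjusted p = 0.926). The larger tissue differences of *Grik3* and *Grik4* in null than in WT mice, -1.22 against -0.93 and 1.44 against 1.13, are the quantities that this interaction compares, and their difference did not pass. Without hippocampus null replicates 1 and 2 the interactions were -0.12 for *Grik3* and 0.13 for *Grik4*. For *Grik1*, *Grik2* and *Grik5* the interaction lay between -0.05 and 0.03.

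Transcripts of the subunit genes were compared as shares of their gene's TPM. Of the 32 transcripts, 12 held at least 10% of their gene on average, 3 of *Grik1*, 4 of *Grik2*, 1 of *Grik3*, 2 of *Grik4* and 2 of *Grik5*, and the 11 from genes with more than 1 such transcript were tested with limma on the arcsine square-root scale. None of the 11 passed in any of the 4 comparisons. Of all transcripts tested, 0% and 0.0369% passed between genotypes (hippocampus, neocortex), and 0.0862% and 0.0408% between tissues (WT, null). None of the 11 had an unadjusted limma p of at most 0.05 either. Between genotypes, 1090 among 24285 transcripts (hippocampus) and 1551 among 24363 (neocortex) reached that p. Between tissues, 1837 among 24351 (WT) and 2393 among 24537 (null) did. At such rates few of 11 transcripts would reach it, so its absence among them says little. Grik4-201 held 73.5 ± 3.05% in WT hippocampus, 74.2 ± 3.28% in null hippocampus, 74.6 ± 2.34% in WT neocortex and 77.8 ± 3.76% in null neocortex, with Grik4-202 as the rest. These transcripts have the same coding length of 2871 bases and differ in the 3′UTR, of 417 and 2694 bases. Both transcripts thus held similar shares in the tissue with more and in the tissue with less *Grik4*.

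*Grik2* was read mainly as Grik2-202 (40.3% over the 20 samples), Grik2-203, annotated as a retained intron (22.0%), Grik2-207 (18.8%) and Grik2-209 (15.8%). Grik2-202 and Grik2-207 share a coding length of 2727 bases and have 3′UTRs of 1265 and 6275 bases. The share of Grik2-207 was 16.9 ± 0.874% and 18.7 ± 2.14% in WT and null hippocampus and 20.03 ± 1.19% and 19.5 ± 1.37% in the neocortex, a difference of a few points that did not pass. Limma draws the variance of each transcript towards that of all tested transcripts. Its p therefore does not rest on the printed SDs alone, and a small steady difference can be missed. Transcripts of *Grik5* divided between the coding Grik5-201 (47.9%) and Grik5-202 (37.0%), which is annotated as a target of nonsense-mediated decay and has a coding length of 393 bases against 2940.

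*Grik1* was spread over Grik1-211 (36.04%), Grik1-202 (31.02%) and Grik1-201 (11.9%), whose coding lengths are 2763, 2805 and 2718 bases. Its shares were the least steady, and that of Grik1-211 ran from 5.95% to 68.4% within the 5 null hippocampal samples. Grik1-201, Grik1-202, Grik2-202 and Grik5-201 hold no sequence of 31 bases that is theirs alone within the gene, so kallisto's division of reads among them rests on shared sequence, and shares of these transcripts are uncertain beyond their SD.

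**Figure D5:**
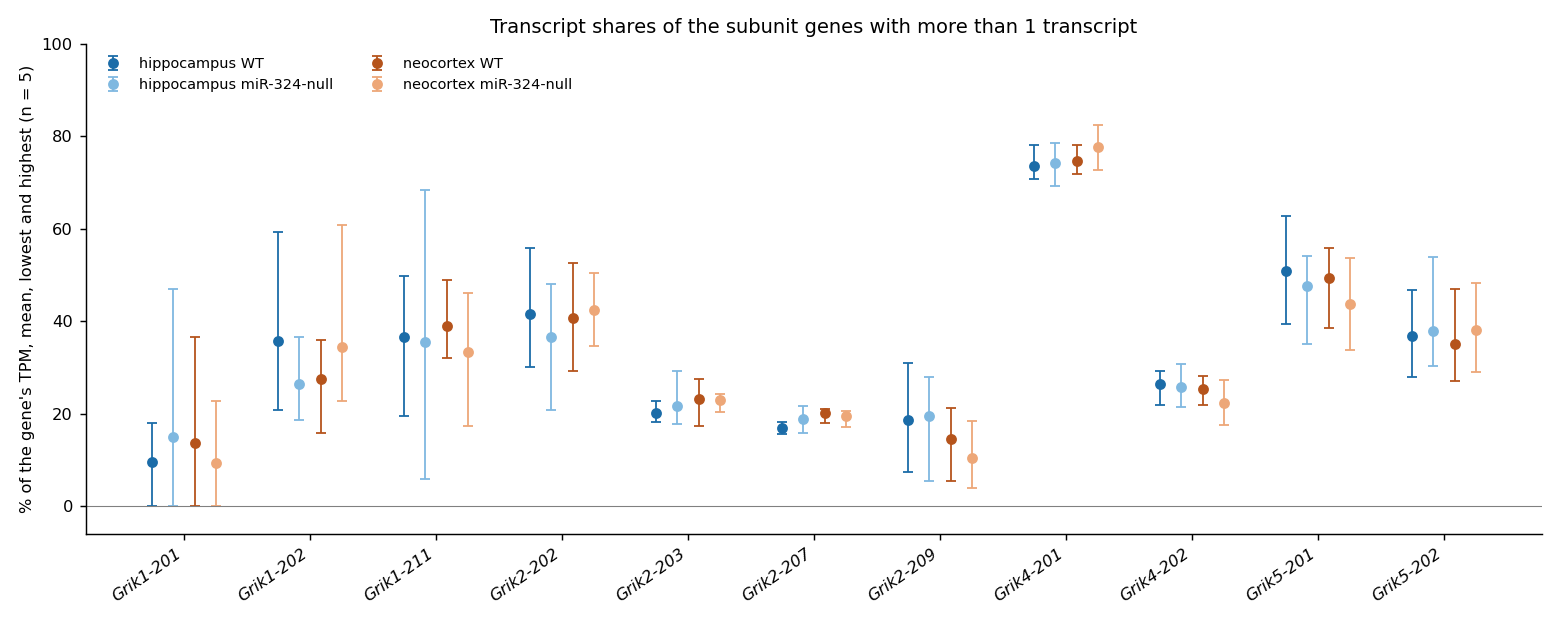
Share of each transcript in its gene's TPM (y axis, percent) for the 11 tested transcripts (x axis), with a point at the mean and a bar from the lowest to the highest of 5 samples in each group. The 4 groups overlap for every transcript shown, Grik4-201 lies between 73.5% and 77.8% in group means, and Grik1-211 spans the widest range.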

How the data were processed

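RNA-seq of 20 samples was analysed, grouped by the submitters' labels. The authors prepared stranded mRNA libraries and pseudo-aligned the reads with kallisto to the GRCm38 transcriptome (release 92). Per the labels, the submitters' processing notes also name GRCh38, but all identifiers are of mouse. The deposited files give estimated counts and TPM of 115270 transcripts in each sample, and the authors' use of strand in kallisto was not given in the sources used here. Of these, 113580 were matched by identifier to GENCODE M21, the other 1690 (0.509% to 0.556% of counts) were left out, and values were summed over 35580 genes, with estimated counts rounded.

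Comparisons used edgeR 4.0.16 (R 4.3.3), with filterByExpr, TMM and the quasi-likelihood test, on the 10 samples of a comparison (20 for the interaction), with Benjamini-Hochberg adjustment over all genes at 0.05. CPM are TMM-normalised. The study used Tximport and DESeq2, which were run as alternatives (DESeq2 1.42.0). Transcripts of at least 10% of their gene's TPM were tested with limma 3.58.1. Intervals are 2 SE. Scripts used Python 3.11.15, numpy 2.4.6, pandas 2.3.3 and scipy 1.17.1, and were tested on simulated counts.

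The alternatives tried were size factors of DESeq2 in edgeR, no low-count filter, at least 10 counts in every sample, DESeq2, the transcript-length offset in either tool, all 20 samples in 1 fit, limma on log2(TPM + 1) and log2(TPM + 0.1), the replicate block, the striatal markers as covariate, transcripts of at least 5% and shares of counts, and each replicate left out. Added after seeing the data were the long-transcript mean and the CA3 markers as covariates, and leaving out 3 libraries with over 500 CPM of choroid plexus genes (their sum) and 2 with a long-transcript mean under 5. Genes were named by rule: the 5 subunits, *Neto1* and *Neto2*, and up to 6 listed pathway genes of smallest adjusted p per comparison. A gene that this rule names is not reported here, and counts over its list include it. The members and lists were chosen with earlier results of these data known.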

Additional observations from a re-analysis of the deposited data

Results flagged for a closer look

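In 2 of 20 groups of 5 CPM values, a sample lay farther from the others than Dixon's limit for 5 values (0.71), where chance marks about 1 group in 20, and none did so in TPM. *Grik2* was at 52.0 CPM in neocortex miR-324-null replicate 5, against at least 63.3 in the other 4 null replicates and between 48.2 and 57.6 in WT neocortex. *Grik5* was at 229 CPM in hippocampus WT replicate 5, with the other 4 WT replicates between 238 and 241, so the distance is small beside the level. Neocortex miR-324-null replicate 5 held the lowest long-transcript mean of its tissue, at 5.02 on the log2 CPM scale, and the highest sum of its group for the 6 neocortical layer markers, at 654 CPM, against 394 to 484 in the other 4 null replicates and 543 to 612 in WT neocortex. It was also the lowest of its group in the summed astrocyte (186 CPM), meninges (23.2 CPM) and striatal projection neuron (206 CPM) markers. The part of these in the *Grik2* value was not tested.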

How the results depend on the processing

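Counts of subunit genes or transcripts called kept within 1.5 times of the reported count in 169 of 170 alternative results. The exception was the genotype comparison in the neocortex, where leaving out each replicate in turn gave 0 to 1 called, with *Grik2* called without null replicate 5 (0.27, edgeR adjusted p = 0.0212). In the tissue comparison in null mice 3 to 4 were called, the fourth being *Grik5*, which also did not pass by limma on log2(TPM + 1) (0.16, adjusted p = 0.171) or on log2(TPM + 0.1) (0.16, adjusted p = 0.177). Genes called in all moved more: 4 (replicate block) to 139 (DESeq2) between genotypes in the hippocampus, 11 (striatal covariate) to 240 (DESeq2) in the neocortex with 566 without null replicate 5, and 0 (replicate block) to 20 (without neocortex null replicate 5) for the interaction. Limma on log2(TPM + 1) split the tissue calls into 1658 higher and 2104 lower in WT mice, against 2699 and 2680, and into 1059 and 2068 in null mice, against 2076 and 2049; its median over all genes was -0.02 and -0.07. Between genotypes in the neocortex it called 20 higher and 5 lower, and on log2(TPM + 0.1) 13 and 4, against 24 and 23, with a median over all genes of 0.05 in both.

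Signs turned only for values near 0, at adjusted p of 0.866 or more: *Neto2* between genotypes in the neocortex (0.0161 by limma on log2(TPM + 1) and 0.0166 on log2(TPM + 0.1); -0.0707 to 0.00771 with a replicate left out), *Grik1* between tissues without the choroid plexus libraries (0.0208 in WT and 0.0389 in null mice; with a replicate left out -0.16 to 0.0208 and -0.13 to 0.0362), the interaction of *Grik1* (-0.10 without the libraries of low long-transcript mean; -0.0705 to 0.12 with a replicate left out), and that of *Grik5* (0.0377 without the choroid plexus libraries, 0.00108 with DESeq2's size factors, 0.000961 by DESeq2; -0.0550 to 0.0357 with a replicate left out).

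With the replicate number as a block, 0 subunit genes were called between genotypes in either tissue, 4 between tissues in each genotype and 0 for the interaction, as without it. Deviations from the group means were correlated between samples of the same number. Between genotypes, where equal numbers join different animals, r lay between -0.17 and 0.12. Between tissues it lay between -0.10 and 0.10 in WT and between 0.02 and 0.18 in null mice. There WT replicates 1 and 3 and null replicates 1, 3 and 4 correlated best with their own number, and the others did not. The labels state no pairs, so the numbers were not taken as pairs. Some same-numbered samples of the 2 tissues may still come from 1 mouse, and the tissue and interaction fits without the block take them as independent. Depth limited *Grik1* most, with 125 to 277 counts a sample, and the division of reads among transcripts is not covered by the SDs.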

Other observations

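For each subunit gene, the genes whose level followed it most closely across the 20 samples were listed after the mean of each of the 4 groups was subtracted, as Pearson's r of log2 CPM among the 11754 genes with a mean of at least 5 CPM. These correlations are descriptions over samples that share tissue pieces, libraries and depth, and no p is given. The long-transcript mean, lowest in hippocampus null replicates 1 and 2, was not taken out of any of them, nor out of those among the subunit genes below. *Grik3* was followed most closely by *Etl4* (r = 0.92), *Nav3* (0.92) and *Dock3* (0.90). *Grik5* was followed by *Fjx1* (0.90), *Sema6b* (0.89) and *Ptms* (0.88). *Grik4* was followed by *Rgmb* (0.87) and *Nrros* (0.85), and the auxiliary gene *Neto1* came next, at 0.79, among all genes compared. *Grik1* was followed by *Tox2* (0.86), *Gap43* (0.80) and *Grk3* (0.80), and *Grik2* by *Slc44a5* (0.85), *Ahi1* (0.79) and *Ccdc13* (0.79).

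Among the subunit genes themselves the within-group correlations over the same 20 samples were weaker. The lowest was that of *Grik3* with *Grik4* (r = -0.56), followed by *Grik3* with *Grik5* (-0.40), and the highest were *Grik4* with *Grik5* (0.31) and *Grik2* with *Grik4* (0.30). *Neto2* stood at 0.53 with *Grik3* and at -0.48 with *Grik4*.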
